A study of Mus musculus with 2 samples.

Results

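The vacuolar H+-ATPase (V-ATPase) was followed through 10 of its subunit genes, Atp6v1a, Atp6v1b2, Atp6v1c1, Atp6v1d, Atp6v1e1, Atp6v1f, Atp6v1g1, Atp6v1h, Atp6v0a1 and Atp6v0d1, of the 46095 genes in the count table. These 10 genes were selected by symbol, with Atp6v1e1 set against the other 9 because it was already known to be lower in the knockdown library, so their differences between the libraries are given as a description. The sum of both libraries reached 10 counts for all 10 of them, as for 17356 genes of the whole table, and a gene that did so is said to have enough counts.

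The V-ATPase is a rotary proton pump of lysosomes, endosomes, the Golgi and secretory vesicles. Its cytosolic V1 sector hydrolyses ATP, and the rotation this drives lets the membrane-embedded V0 sector move protons into the organelle lumen. The acid lumen serves lysosomal hydrolases, receptor recycling and the release of iron from transferrin, and the pump also binds the Ragulator complex that recruits mTORC1 to lysosomes.

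RNA was taken from C3H10 cells, a mouse mesenchymal line that turns into adipocytes under an induction cocktail and then insulin, at day 6 of differentiation. The ASO NC library (here the control library) came from cells transfected with a negative control antisense oligonucleotide, and the ASO MALAT1 library (here the knockdown library) from cells transfected with an antisense oligonucleotide against the nuclear long noncoding RNA Malat1, each at 100 nM. The labels name the cells as fibroblast precursors able to form fat and give their strain as C57BL/6, both groups were the same line put through the same induction, and which of the study's antisense oligonucleotides was sequenced is not given in the sources used here. Each group was 1 library, so no difference has a replicate check, no test between groups was possible, and the 95% intervals given (by Clopper-Pearson) cover counting error only.

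The 2 libraries summed to 58147539 counts (control) and 61653549 counts (knockdown). The targeted RNA, Malat1, had 170402 counts in the control library and 45396 in the knockdown library, which left 24.7% of the control level (log2 fold change -2.01). The adipocyte markers were lower in the knockdown library, with 9 of 10 past 2-fold lower, beside 6.02% of all genes with enough counts. Their median log2 fold change was -1.34. Their summed level in counts per 1e6 counts (CPM, with library sizes scaled by edgeR's TMM factors) was 6293 in the control and 2508 in the knockdown library. In bulk RNA, fewer adipocytes and less of these RNAs per adipocyte cannot be told apart, and the part of this shift in the V-ATPase values was not tested. Of the fibroblast markers, 8 of the 9 with enough counts lay above 0, beside 8600 of all 17356 genes. Their median was 0.21, and Dlk1, a preadipocyte marker, had 0 counts in both libraries.

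The DNA upstream of 3 of the genes is shown, and the stretch of Atp6v0d1 also runs past its annotated start. Atp6v1e1 is shown because the results turn on it, and Atp6v1a and Atp6v0d1 because they hold the element of lysosomal genes described next. RefSeq promoter windows of GRCm38.p6, from 250 bases before to 50 bases after the annotated start, were held for 6 of the 10 genes. The capitals mark TATAAA, the core of a TATA box, in Atp6v1e1, and TCACGTGA, the palindromic core of the element that TFEB and TFE3 bind at lysosomal genes, in Atp6v1a and Atp6v0d1.
Atp6v1e1 (chr6:120822699-120822948, minus strand): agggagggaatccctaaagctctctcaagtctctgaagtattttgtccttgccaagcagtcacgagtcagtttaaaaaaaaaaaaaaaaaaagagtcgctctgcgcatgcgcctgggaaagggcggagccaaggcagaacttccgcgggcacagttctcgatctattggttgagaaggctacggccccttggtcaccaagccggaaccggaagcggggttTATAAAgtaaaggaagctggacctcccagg
Atp6v1a (chr16:44139298-44139447, minus strand): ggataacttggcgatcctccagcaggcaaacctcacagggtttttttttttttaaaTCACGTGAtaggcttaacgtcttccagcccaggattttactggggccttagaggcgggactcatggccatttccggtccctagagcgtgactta
Atp6v0d1 (chr8:105566035-105566184, minus strand): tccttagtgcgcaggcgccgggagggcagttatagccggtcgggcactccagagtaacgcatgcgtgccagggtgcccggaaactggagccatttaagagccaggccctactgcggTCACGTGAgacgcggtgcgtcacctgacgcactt

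The TATAAA letters of Atp6v1e1 lay 30 to 25 bases before the RefSeq start. GENCODE M21 starts the same gene farther upstream, at base 120822793 of chromosome 6, so by that annotation these letters fall inside the gene. The same holds for Atp6v1a, which GENCODE M21 starts at base 44139705 of chromosome 16. The letters TCACGTGA spanned 132 to 125 bases before the RefSeq start of Atp6v1a and ran from 4 bases before to 4 bases after that of Atp6v0d1. GENCODE M21 starts Atp6v0d1 farther downstream, at base 105566047 of chromosome 8, so by that annotation its marked letters lie before the gene. Searched on both strands, TCACGTGA was in 2 of the 6 windows of the selected genes, in 3 of 24 windows of all V-ATPase subunit genes and in 0.974% of the 32851 windows of the RefSeq set. The shorter E-box CACGTG, which every TCACGTGA contains, was in the same 2 windows of selected genes and in 7.15% of all windows. TATAAA was in 1 of the 6 windows, that of Atp6v1e1, in 1 of the 24 subunit windows and in 13.6% of all windows. The window of Atp6v1e1 held 51.7% G and C, beside 45.3% for Atp6v1a, 62.3% for Atp6v0d1 and a mean of 53.8% over all windows.

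Atp6v1e1 encodes the E subunit, which pairs with the G subunit to form the peripheral stalks that hold the catalytic ring still while the rotor turns. It had 2581 counts in the control library and 228 counts in the knockdown library, or 44.7 and 3.67 CPM. The knockdown library was the low one of the pair, at 8.22% of the control level. The log2 fold change was -3.60 (interval -3.81 to -3.41), a level 12.2-fold lower (interval 10.6-fold to 14.0-fold).

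The other 9 subunit genes lay between -0.14 and 0.10 on the log2 scale, with a median of -0.01. The log2 fold change of Atp6v1e1 was lower than this median by a difference of -3.59, and the corresponding difference from the median of all 21 other subunit and accessory subunit genes with enough counts was -3.57. Of the 10 selected genes, 1 was 2-fold or more lower and 0 were 2-fold or more higher. Of all 17356 genes, 6.02% were 2-fold or more lower and 3.83% were 2-fold or more higher, which is 9.85% in either direction. Nothing is read from the count of the selected genes, since they were chosen from this contrast.

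**Figure D1:**
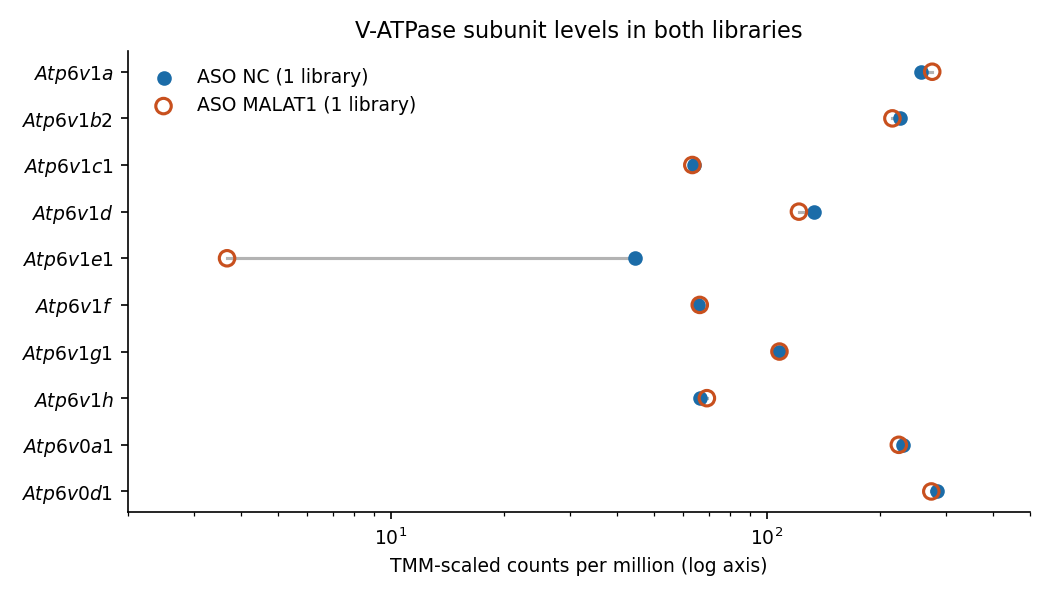
TMM-scaled CPM (horizontal log axis) of the 10 V-ATPase subunit genes in the ASO NC library (filled blue) and the ASO MALAT1 library (open orange), 1 library each and no error bars. The points of Atp6v1e1 are at 44.7 and 3.67 CPM, while those of the other 9 genes nearly coincide.

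The catalytic hexamer of V1 is built from the A and B subunits. Atp6v1a, which carries the main ATP-binding sites, had 14851 counts in the control library and 17098 in the knockdown library, or 257 and 275 CPM, and its log2 fold change of 0.10 (interval 0.06 to 0.13) was the highest of the 10. Atp6v1b2, the B subunit isoform of most tissues, had 13045 and 13399 counts, or 226 and 216 CPM, at a log2 fold change of -0.07 (limits -0.10 to -0.03). The intervals of the pair lay on opposite sides of 0, at 107% and 95.4% of the control level. Atp6v1b1, the B isoform of kidney and inner ear, had 0 counts in both libraries, which allows up to 0.0520 CPM in the first and 0.0483 CPM in the second.

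Of the genes for the other stalk subunits, Atp6v1g1, whose protein is the direct partner of the E subunit in each peripheral stalk, had 6210 counts in the control library and 6710 in the knockdown library. Its levels were 108 CPM in both, with a log2 fold change of 0.01 (limits -0.04 to 0.06). The E and G subunits assemble as a dimer, and of this pair of transcripts only that of the E subunit stood apart between the libraries. Atp6v1c1, for the C subunit that ties the stalks to V0 and leaves the complex when V1 detaches, had 3684 and 3936 counts, or 63.8 and 63.4 CPM. Atp6v1h, for the H subunit that regulates coupling between the sectors, had 3821 and 4303 counts, or 66.2 and 69.3 CPM. The interval of Atp6v1c1 held 0 (log2 fold change -0.01, -0.08 to 0.05) and that of Atp6v1h began just above 0 (log2 fold change 0.06, 0.00 to 0.13).

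The D and F subunits form the central rotor shaft of V1. Atp6v1d had 7713 counts in the control library and 7560 in the knockdown library, or 134 and 122 CPM, and its log2 fold change of -0.14 (interval -0.18 to -0.09) was the lowest after that of Atp6v1e1. Atp6v1f had 3778 and 4119 counts, or 65.5 and 66.3 CPM, with a log2 fold change of 0.02 (interval -0.05 to 0.08). Neither shaft gene came near the 2-fold line.

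In V0, Atp6v0a1 encodes the a subunit isoform that forms the proton half-channels and Atp6v0d1 the d subunit that sits on the membrane ring and takes up the rotor shaft. Atp6v0a1 had 13304 counts in the control library and 13935 in the knockdown library, or 231 and 224 CPM, with a log2 fold change of -0.04 (interval -0.07 to -0.01). Atp6v0d1 had 16379 and 17002 counts, or 284 and 274 CPM, with a log2 fold change of -0.05 (interval -0.08 to -0.02). Both lay slightly below 0, with intervals under TMM scaling that excluded it. With library totals they were at -0.02 and -0.03, a shift of 0.022 that exceeds the distance of either upper limit from 0. These calls therefore depend on the scaling. Over the 9 genes other than Atp6v1e1, 3 intervals under TMM scaling held 0, 2 lay above it and 4 below. Their summed level was 1435 CPM in the control and 1417 CPM in the knockdown library.

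Levels of different genes can be compared only per length, for which counts were divided by transcript length and scaled to the same total in both libraries (TPM). By the longest protein-coding transcript of the GENCODE basic set, a length chosen after the data were seen, the levels of the 8 V1 genes in the control library ran from Atp6v1g1 at 259 TPM through Atp6v1f at 222 TPM, Atp6v1b2 at 218 TPM, Atp6v1a at 166 TPM, Atp6v1d at 99.4 TPM, Atp6v1e1 at 93.0 TPM and Atp6v1h at 88.1 TPM to Atp6v1c1 at 84.1 TPM. Atp6v1e1 was sixth of 8 in that order, close to the genes beside it. In the knockdown library the other 7 ranged from 86.3 TPM (Atp6v1c1) to 268 TPM (Atp6v1g1), and Atp6v1e1 was last at 7.89 TPM. The level of Atp6v1a was 1.78 times that of Atp6v1e1 in the control library and 23.2 times in the knockdown library. Both the levels and their order depend on the transcript chosen. With the longest annotated transcript of any type, which for Atp6v1e1 is a retained-intron form of 2928 bases, its level was 44.7 TPM in the control library and 3.78 TPM in the knockdown library (again sixth and then last of the V1 genes), and Atp6v1a was at 3.98 and 51.9 times that level. With the shortest protein-coding transcript, Atp6v1e1 was at 102 and 8.52 TPM, at place 4 of 8 in the control library and last in the knockdown library, and Atp6v1a was at 4.37 and 56.9 times that level.

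Several subunits have a second isoform gene, and the counts of these show what else was expressed. The testis isoform of the E subunit, Atp6v1e2, had 0 counts in both libraries, so every count assigned to an E subunit gene was that of Atp6v1e1. A stretch of 383 bases of Atp6v1e2 is identical to AC154492.1, a transcript that is not a row of the count table. The G subunit isoforms Atp6v1g2 and Atp6v1g3 also had 0 counts in both libraries. Atp6v1g2 overlaps Nfkbil1, also at 0 in both, by 2133 bases on the opposite strand, and whether reads of such genes were dropped was not tested. Atp6v1c2, the tissue-restricted C isoform, had 137 counts in the control library and 107 in the knockdown library (log2 fold change -0.46, interval -0.84 to -0.09), a small number beside Atp6v1c1.

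Among the a subunit isoforms, Tcirg1 (the a3 subunit, best known from osteoclasts and lysosomes) had 4664 counts in the control library and 6295 in the knockdown library. Its log2 fold change was 0.33 (interval 0.27 to 0.38), from 80.8 to 101 CPM. Atp6v0a2, the Golgi and endosome isoform, had 3537 and 4088 counts (log2 fold change 0.10, interval 0.04 to 0.17), and the kidney isoform Atp6v0a4 had 7 and 10 counts. The interval of Tcirg1 lay above those of Atp6v0a1 and Atp6v0a2. The 4 a isoforms together had 21512 counts in the control library and 24328 in the knockdown library, which is 0.07 on the log2 scale (interval 0.04 to 0.10). Of the macrophage and osteoclast markers, 6 of 10 had 0 counts in both libraries (Adgre1, Ptprc, Tyrobp, Ocstamp, Calcr and Itgam). The list summed to 7.82 CPM in the control and 5.92 CPM in the knockdown library, and of its 4 genes with enough counts Acp5 (28 and 6 counts) was past 2-fold lower and Csf1r (3 and 13 counts) past 2-fold higher. The other 2 were Cd68 (172 and 119 counts) and Mmp9 (248 and 230 counts).

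The remaining V0 genes code for the proteolipid ring and small membrane subunits. Atp6v0b, the c'' proteolipid, had 7876 counts in the control library and 7869 in the knockdown library (log2 fold change -0.11, interval -0.15 to -0.06). Atp6v0e, an e subunit, had 9539 and 9996 counts (log2 fold change -0.04, interval -0.08 to 0.00), and its second isoform Atp6v0e2 had 159 and 138 counts (log2 fold change -0.31, interval -0.65 to 0.03). Atp6v0d2, the osteoclast and kidney isoform of the d subunit, had 11 and 5 counts, and its log2 fold change of -1.17 had an interval of -3.12 to 0.40 that held 0.

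The c subunit itself could not be read from its own row. Atp6v0c, the main proteolipid of the ring, had 729 counts in the control library and 791 in the knockdown library (log2 fold change 0.01, interval -0.14 to 0.16). Its pseudogene Atp6v0c-ps2, identical to it at 99.8% of 465 aligned bases, had 4490 and 5587 counts, so reads of the pair may have been assigned to the copy. Summed with both of its copies in the table, the c subunit had 5220 and 6378 counts and a log2 fold change of 0.18 (interval 0.13 to 0.24). Atp6v1g1 had a copy of few counts, Gm13453, with 9 and 6 counts. Atp6v1f matches the pseudogene AC169506.3, which is not a row of the count table, at 97.5% of 360 bases. No transcript at 95% identity over 200 bases or more was found for Atp6v1e1.

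The accessory subunits Atp6ap1 and Atp6ap2, membrane proteins that help the complex assemble, had counts as high as many core subunits. Atp6ap1 had 15952 counts in the control library and 17305 in the knockdown library (log2 fold change 0.01, interval -0.02 to 0.04). Atp6ap2, also the prorenin receptor, had 5311 and 5316 counts (log2 fold change -0.11, interval -0.16 to -0.05).

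Rnasek, a small membrane protein found in the purified mammalian complex, was the other subunit gene far below the 2-fold line. It had 415 counts in the control library and 26 in the knockdown library, or 7.19 and 0.418 CPM, with a log2 fold change of -4.08 (interval -4.73 to -3.53). An annotated readthrough transcript, Gm21988, matches Rnasek at 99.3% of 599 bases and is not a row of the count table. Over the list of 26 subunit and accessory subunit genes, 22 had enough counts, and of these 3 were 2-fold or more lower (Atp6v1e1, Rnasek and Atp6v0d2) and 0 were higher, with a median of -0.04, beside 6.02% lower and 3.83% higher over all genes. Nothing is read from this count, which includes the gene the selection rested on and, in Atp6v0d2, one whose interval held 0.

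**Figure D2:**
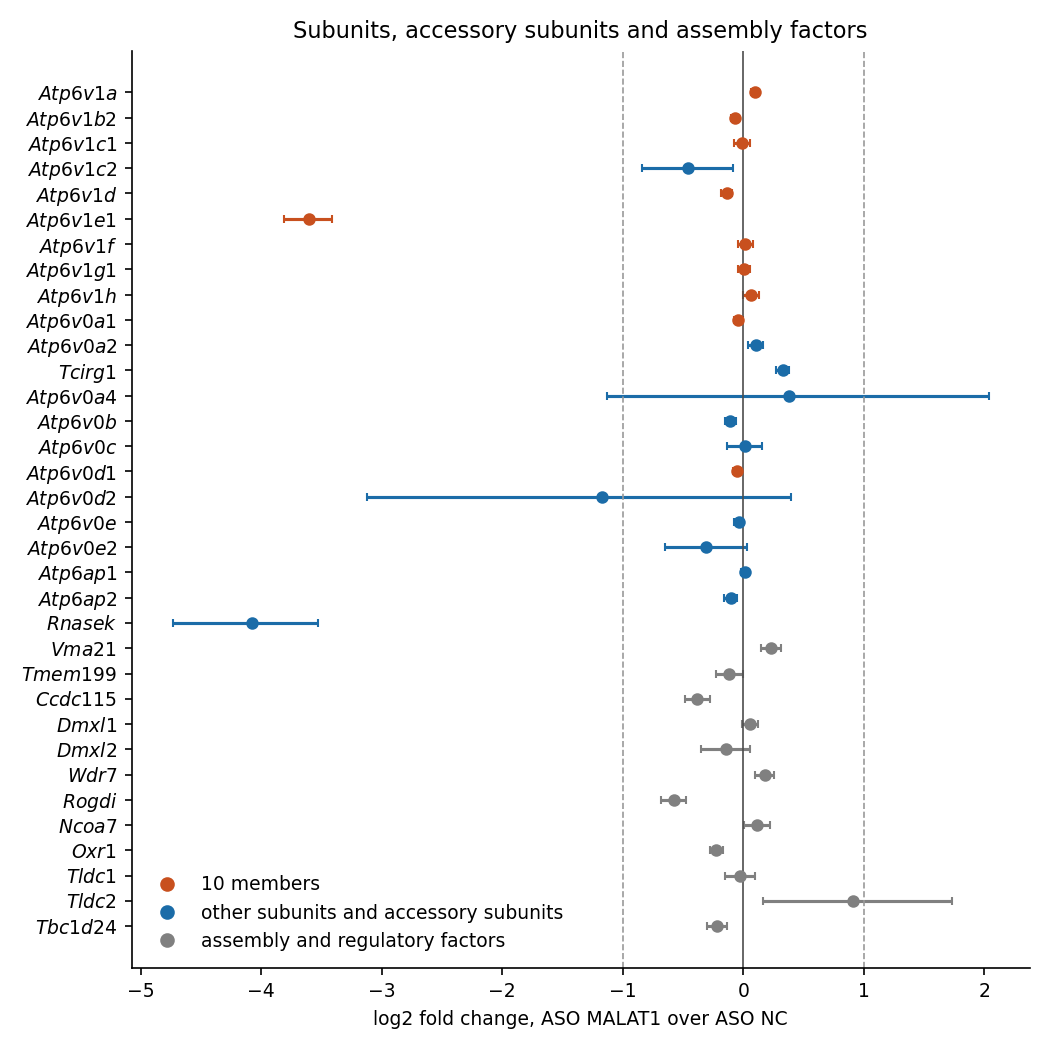
Log2 fold change (ASO MALAT1 over ASO NC, horizontal axis) of V-ATPase subunit genes, accessory subunits and assembly factors with at least 10 counts, with 95% Clopper-Pearson intervals for counting error as bars and dashed lines at 2-fold. Atp6v1e1 and Rnasek lie at -3.60 and -4.08, and Atp6v0d2 at -1.17 has the widest bar, with 11 and 5 counts.

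Genes that build or regulate the pump formed a separate list of 13. Of these, 12 had enough counts and 0 were past 2-fold in either direction, beside 9.85% of all genes. Of genes with at least 1000 control counts, 0.847% were 2-fold or more lower, so nothing is read from this 0. The median log2 fold change was -0.07. Vma21, an assembly chaperone of V0 in the endoplasmic reticulum, had 2157 counts in the control library and 2728 in the knockdown library (log2 fold change 0.23, interval 0.15 to 0.31). Its partners in that step, Tmem199 (1359 and 1351 counts, log2 fold change -0.12, interval -0.22 to -0.01) and Ccdc115 (1590 and 1315 counts, log2 fold change -0.38, interval -0.49 to -0.27), lay below 0. The upward shift of 0.022 with library totals exceeds the distance of the upper limit of Tmem199 from 0, so its interval depends on the scaling. The assembly chaperones thus did not share a direction.

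Dmxl1, Dmxl2, Wdr7 and Rogdi belong to the RAVE-like machinery that rejoins V1 with V0. Rogdi had 1737 counts in the control library and 1254 in the knockdown library (log2 fold change -0.58, interval -0.68 to -0.47), the lowest of the assembly list. Wdr7 had 2507 and 3053 counts (log2 fold change 0.18, interval 0.10 to 0.25), while the intervals of Dmxl1 (3755 and 4207 counts) and Dmxl2 (399 and 388 counts) held 0. Of the genes with a TLDc domain, a fold of proteins that bind V1, Oxr1 had 6052 and 5580 counts (log2 fold change -0.22), Ncoa7 had 1237 and 1442 counts (log2 fold change 0.11), Tldc1 had 1014 and 1071 counts (log2 fold change -0.03) and Tbc1d24 had 2442 and 2259 counts (log2 fold change -0.22). Tldc2 had the highest value, 0.91 (interval 0.16 to 1.73), from 22 and 45 counts. Atp6ap1l had 0 counts in both libraries.

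The place of Atp6v1e1 among genes of like depth was then described. Since the gene was set apart as low in this same contrast, its rank and its distance from other genes are descriptions only. Of the 8148 genes with at least 1000 counts in the control library, Atp6v1e1 had the lowest log2 fold change, and 0.847% of them were 2-fold or more lower. This filter and the band below use control counts alone, so a gene low in the control and high in the knockdown library could not enter. Atp6v1e1, with 228 knockdown counts, entered through the library where it was high. The 4780 genes with 1291 to 5162 control counts had a median log2 fold change of 0.01, with 5% of them under -0.40 and 1% under -0.91. In this band 39 genes were 2-fold or more lower and 0 were 2-fold or more higher, a split that the choice by control counts can shape and from which nothing is read. Over all genes the log2 fold changes were wider, with 5% of genes under -1.13, 1% under -2.56 and a median near 0 (-0.0031). Of all 17356 genes, 55 had a lower log2 fold change than Atp6v1e1, and the highest control count among these was the 415 of Rnasek.

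The 5 genes with at least 1000 control counts whose log2 fold changes came nearest to that of Atp6v1e1 were all well above it. Thrsp, a regulator of lipogenesis, was the nearest at -2.16 (1121 counts in the control library and 270 in the knockdown library), a distance of 1.45. Malat1 followed at a distance of 1.59. Retn, the adipokine resistin, was at -1.99 (1592 and 431 counts), Gpd1, which makes glycerol 3-phosphate, at -1.91 (30396 and 8692 counts) and Mrap, the melanocortin receptor accessory protein of fat and adrenal cells, at -1.89 (4564 and 1329 counts). Likeness here is the absolute difference in log2 fold change over 2 libraries, and the filter again used control counts alone.

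**Figure D3:**
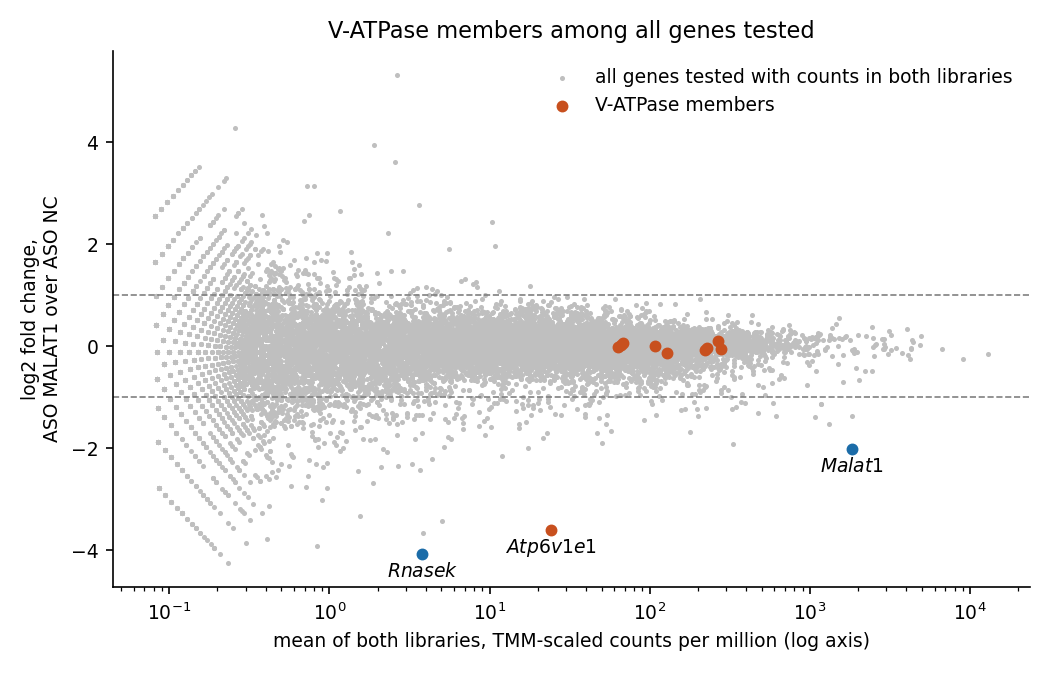
Log2 fold change (ASO MALAT1 over ASO NC, vertical axis) against the mean TMM-scaled CPM of both libraries (horizontal log axis) for 17301 genes with counts in both libraries (grey), with the 10 V-ATPase genes in orange, Malat1 and Rnasek in blue and dashed lines at 2-fold. The 55 genes at 0 in 1 library are left out, and Atp6v1e1 lies below the grey cloud while the other 9 orange points lie within it.

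Atp6v1e1 lies on chromosome 6 from base 120794305 to base 120822793 on the minus strand (GRCm38, GENCODE M21), and its longest coding transcript has 9 exons and 1312 bases. Of the 5 annotated genes on each side, Bcl2l13, on the plus strand from base 120836212, had 1499 counts in the control library and 1691 in the knockdown library (log2 fold change 0.07). The genes farther along had log2 fold changes of 0.20 for Bid (3378 and 4182 counts), a death agonist of the Bcl-2 family, and -0.37 for Mical3 (2630 and 2198 counts), an actin-oxidizing enzyme, and Gm17812 (0 and 1 count) and Gm4651 (0 in both) held almost nothing. The log2 fold changes of Bcl2l13, Bid and Mical3, the neighbours on this side with over 1000 counts, lay between -0.37 and 0.20.

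On the other side, Slc25a18 overlaps Atp6v1e1 by 32 bases on the opposite strand and had 0 counts in both libraries. Cecr2 had 11 counts in the control library and 0 in the knockdown library. Its log2 fold change of -4.63, below that of Atp6v1e1, had an interval with an upper limit of -1.43 and no lower limit. Farther out, 1700072O05Rik had 0 in both, Il17ra had 92 and 116 counts (log2 fold change 0.23) and Kdm5a, a histone demethylase, had 809 and 1026 counts (log2 fold change 0.24). Within 500 kb of Atp6v1e1, measured between the lowest bases of the genes on either strand, 9 other genes had enough counts. Their median log2 fold change was 0.09 and their median control count was 809. Of these, 1 (Cecr2) was past 2-fold lower and 0 were past 2-fold higher, beside 6.02% and 3.83% over all genes.

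The surroundings of Rnasek on chromosome 11 (bases 70238124 to 70239842, minus strand) were described in the same way. Its next gene, 0610010K14Rik, had 243 counts in the control library and 93 in the knockdown library (log2 fold change -1.49), and Pelp1 had 58 and 22 counts (log2 fold change -1.49). Within 500 kb of Rnasek, 35 other genes had enough counts. Of these, 7 were past 2-fold lower and 4 past 2-fold higher, beside 6.02% and 3.83% over all genes. Their log2 fold changes ran from -3.42 (Eno3, 532 control counts) to 2.44 (Eif5a, 185 control counts). The median control count of these genes was 58, far under the 809 around Atp6v1e1. The part that these low counts play in the value of Rnasek was not tested. Whether all reads of this region, Rnasek included, were assigned to its genes was not tested either.

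**Figure D4:**
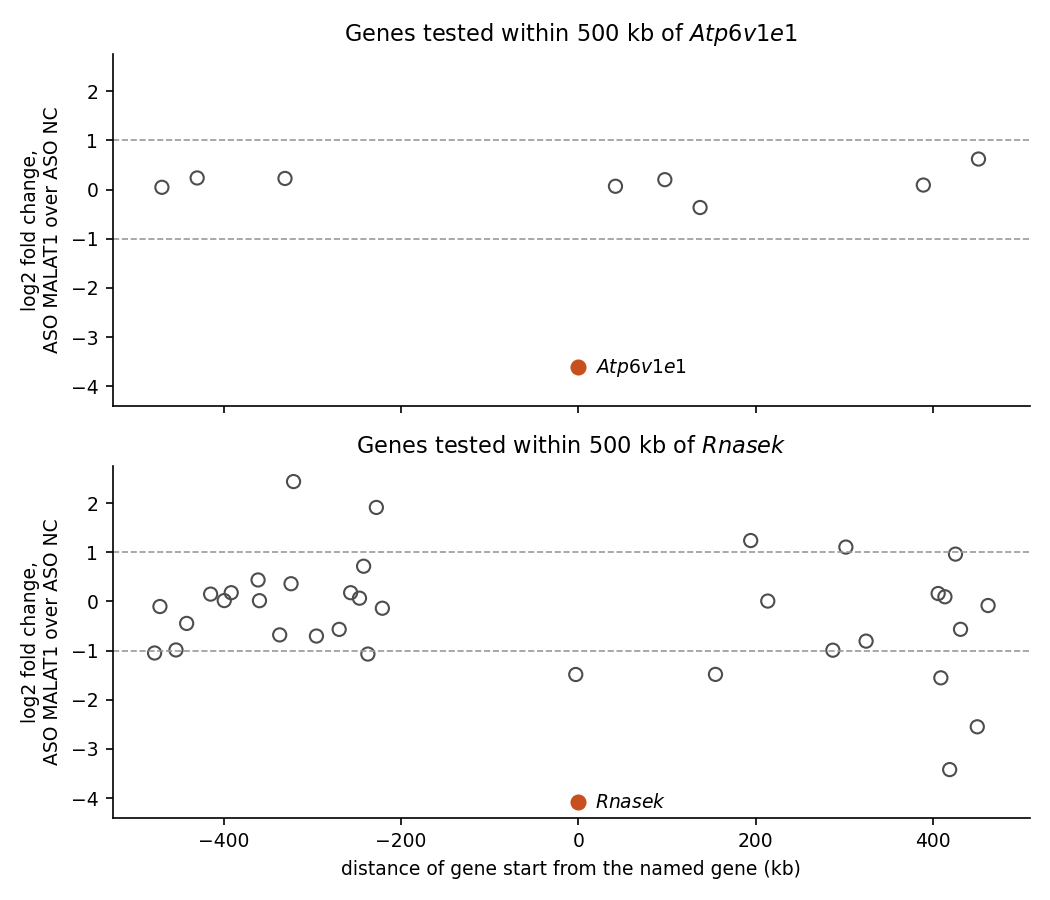
Log2 fold change (ASO MALAT1 over ASO NC, vertical axes) of genes with counts in both libraries within 500 kb of Atp6v1e1 (upper) and Rnasek (lower), with dashed lines at 2-fold. The horizontal axes give the distance in kb from the lowest base of the named gene to that of each other gene, whatever the strand. All 8 neighbours drawn around Atp6v1e1 lie between the 2-fold lines, and Cecr2 (11 and 0 counts) is not drawn. Around Rnasek 11 of 35 lie beyond the lines, beside 9.85% of all genes with enough counts.

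Other routes of organelle acidification and the organelle itself were described by the same counts. Over all genes with enough counts, 9.85% were past 2-fold in either direction. Of those with at least 1000 control counts, 0.847% were 2-fold or more lower. Nothing is therefore read from 0 genes past 2-fold in these short lists. Of 9 genes for Cl/H and Na/H exchangers with enough counts, 0 were past 2-fold in either direction, with a median log2 fold change of 0.01. Clcn7, the lysosomal chloride-proton exchanger, had 5019 counts in the control library and 5892 in the knockdown library (log2 fold change 0.12), its partner Ostm1 had 2548 and 2889 counts (0.07) and Clcn4, an endosomal exchanger, had 3591 and 3885 counts (0.01).

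The acid hydrolases of the lysosome, which work at the pH that the V-ATPase sets, had 0 of 39 genes past 2-fold. Their median log2 fold change was 0.11, with 27 of 39 above 0, beside 8600 of all 17356 genes with enough counts. Their summed level was 8699 CPM in the control and 9176 CPM in the knockdown library. Psap, the precursor of the saposins, had 164038 and 183572 counts (log2 fold change 0.06), the protease Ctsb 55963 and 58069 counts (-0.05) and the protease Ctsd 47798 and 55492 counts (0.11). The lysosomal membrane and cholesterol transport genes had a median log2 fold change of 0.03 over 16 genes. Of these, Lamp1, the main membrane glycoprotein, had 58975 and 72483 counts (0.19), Laptm4a had 55389 and 66123 counts (0.15) and Npc2, a lumenal cholesterol carrier, had 98008 and 94037 counts (-0.17). The only one of the 16 past 2-fold was Cln3, with 8 and 4 counts.

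The Ragulator and Rag list, through which the V-ATPase reports to mTORC1, had 0 of 12 genes past 2-fold and a median log2 fold change of -0.01. Rragc had 7159 counts in the control library and 7342 in the knockdown library (log2 fold change -0.07), Lamtor1 had 6153 and 6231 counts (-0.09) and Fnip1 had 5256 and 6142 counts (0.12). The transcription factors of the MiT/TFE family, which raise lysosomal and V-ATPase genes when lysosomes are stressed, had values of 0.01 for Tfe3 (3805 and 4126 counts), -0.25 for Mitf (743 and 672 counts) and -0.38 for Tfeb (1610 and 1333 counts), and Tfec had 0 counts in both libraries.

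Autophagy and iron uptake end in or pass through compartments that the V-ATPase acidifies. Of 19 core autophagy genes, 0 were past 2-fold, with a median log2 fold change of -0.12. The cargo receptor Sqstm1 had 41531 counts in the control library and 41278 in the knockdown library (log2 fold change -0.12), the autophagosome protein Map1lc3b 14148 and 14241 counts (-0.10) and the conjugation factor Atg12 11732 and 12037 counts (-0.07). Of 6 genes for endosomal iron handling, 0 were past 2-fold and the median log2 fold change was -0.11. The ferritin chains Fth1 (252586 and 262600 counts) and Ftl1 (110994 and 112473 counts) were at -0.05 and -0.09, and Steap3, an endosomal iron reductase, at 0.06 (4360 and 4907 counts). The lowest of the 6 was the transferrin receptor Tfrc at -0.67, with 5405 and 3646 counts. A list of 14 widely expressed reference genes had 0 past 2-fold and a median near 0, at -0.0038. Its most counted genes were Actb at 0.18 (89358 and 109305 counts), B2m at 0.15 (82869 and 99333 counts) and Rplp0 at -0.0021 (86992 and 93521 counts).

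**Figure D5:**
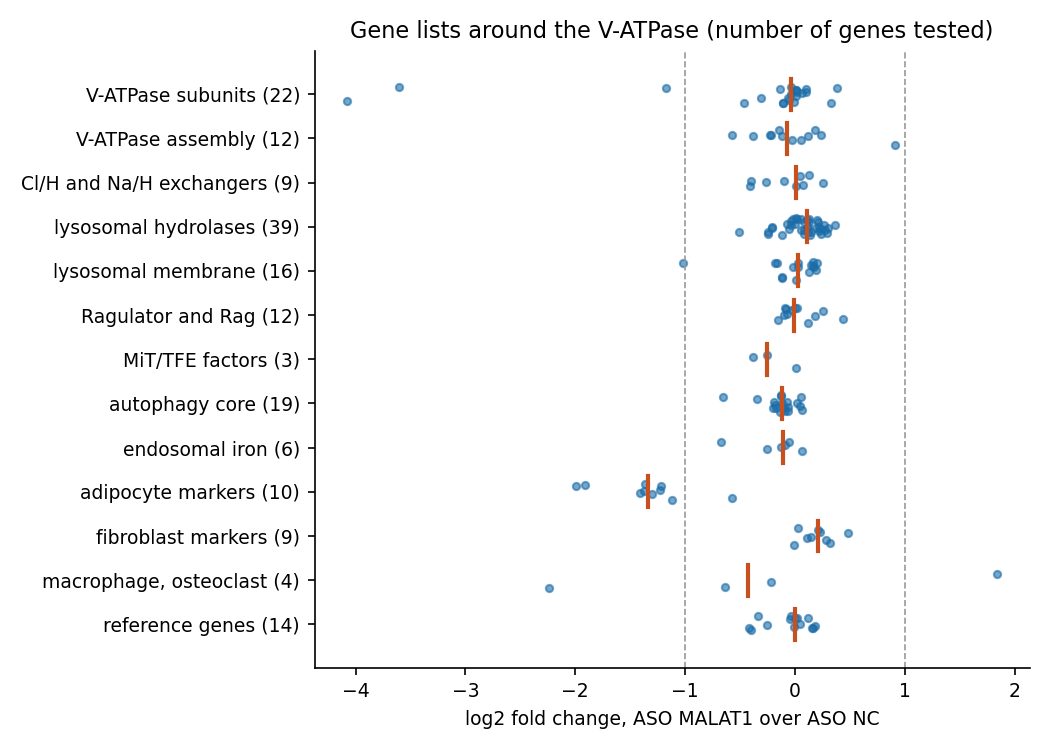
Log2 fold change (ASO MALAT1 over ASO NC, horizontal axis) of each gene with at least 10 counts (points, jittered vertically) in 13 gene lists, with the list's median as an orange bar, the number of genes in brackets and dashed lines at 2-fold. The adipocyte markers are centred at -1.34, and of the V-ATPase subunits Atp6v1e1 and Rnasek lie apart from a median of -0.04.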

How the data were processed

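RNA of C3H10 cells was sequenced in 1 control and 1 knockdown library, made by the authors from total RNA after removal of rRNA with a directional kit. The authors deposited counts, whole numbers of reads per gene symbol without normalization. The submitters' processing notes name HISAT2 and GRCm38. The counting tool, its annotation, its use of strand and its handling of reads that match several places are not given in the sources used here, so counts of copies and of overlapping genes on opposite strands cannot be told apart. The study's array, qPCR, immunoblot and reporter measurements were not analysed here.

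Of 46095 genes, the 17356 whose counts in the 2 libraries added up to 10 or more entered counts and medians (called tested in the plots). Library totals (58147539 and 61653549) were scaled by edgeR's TMM factors, 0.992 and 1.01 (edgeR 4.0.16, R 4.3.3). Each gene's counts plus a prior count of 0.5 were divided by the scaled sizes, and the log2 of the knockdown value over the control value is its log2 fold change. edgeR's quasi-likelihood test and DESeq2 estimate spread from replicates and were not run as tests. Intervals are 95% Clopper-Pearson limits (scipy 1.17.1, Python 3.11.15), a count of 0 allows up to 3 counts, and neither covers variation between cultures. A gene was counted as past the fold at 2-fold. Positions, lengths and transcripts came from GENCODE M21 (GRCm38), which matched 88.3% of the symbols with enough counts, promoters from RefSeq GRCm38.p6, and copies from BLAST+ 2.17.0. The calculation was also run on simulated counts that held counting error only, so that run says nothing of variation between cultures.

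Named were the 10 selected genes, the other genes of the subunit and assembly lists, Malat1, the 5 genes on each side of Atp6v1e1, the 5 nearest in log2 fold change with at least 1000 control counts, near-identical copies, and from each other list the 3 genes with the most counts and any past 2-fold. Dlk1, the markers at 0, Mitf, Tfec and Tfrc, and the genes near Rnasek, were added after their values were seen. The adipocyte and fibroblast lists are given as counts of genes, medians and, for the adipocyte list, a summed level. Their genes were not named by the rule of most counts or 2-fold. Retn and Gpd1, named as nearest genes, belong to the adipocyte list. The selected genes and all lists were chosen with earlier results of these data known. Alternatives were library totals, DESeq2 1.42.0 size factors and upper-quartile factors, prior counts of 2 and 0.125, filters of 1 count summed and of 10 counts in each library, a 1.5-fold line, counts with copies added and other transcript lengths.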

Additional observations from a re-analysis of the deposited data

How the results depend on the processing

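With 1 library per group no replicate could be left out, and the counting intervals, narrow at these depths, say nothing of the spread between cultures. No paired analysis was possible because each group is 1 library. Over the alternatives for scaling, prior count and copies, the log2 fold change of Atp6v1e1 lay between -3.61 and -3.58. Its difference from the median of the other 9 genes lay between -3.60 and -3.58. Scaling factors cancel in that difference, so the scaling alternatives could not change it, and each gave -3.59. Of 60 alternative values of the selected genes, 60 stayed within the counting interval. Those with copies added could differ only for Atp6v1g1, the only selected gene with a copy in the count table. Against the median of all 21 other subunit genes the difference of Atp6v1e1 was -3.57. Atp6v1c1 alone changed sign, to 0.01 with library totals. The upward shift of 0.022 with library totals also exceeds the distance from 0 of the upper limits of Atp6v0a1 and Atp6v0d1. The subunit genes past 2-fold were 3, or 2 with a prior count of 2 or a minimum of 10 counts per library, where Atp6v0d2 was lost. The count of all genes past the fold depended on low counts and on the line: 1710 (9.85%) became 5913 (25.9%) with a filter of 1 count summed, 607 (3.96%) with at least 10 counts in each library and 3503 (20.2%) at 1.5-fold. The level of Atp6v1e1 per length depended on the transcript: 44.7 and 3.78 TPM in the control and knockdown libraries by the longest became 102 and 8.52 TPM by the shortest protein-coding transcript, and 93.0 and 7.89 TPM by the longest coding transcript of the basic set, a choice made after seeing the data. Of 105 alternative list medians, 1 moved by more than the counting half-width (the fibroblast list, to 0.23 with library totals) and 4 that lay near 0 changed sign.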
